A study of Mus musculus with 26 samples.

Results

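The genes described here are 45 interferon-stimulated antiviral genes from a named list. No cut on a measured value picked them, but earlier results of these data were known when the list was chosen. Of the 45, 42 were measured, each by 1 probe set paired with a single gene symbol, among 19938 genes in all. Trim30b and Oas1g lie only on probe sets paired with several symbols, and Ifi44 is not listed in the annotation used, so these 3 have no value. The gene for the sensor RIG-I carries its array name, Ddx58.

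RNA of 26 samples, grouped by receptor and added protein, was hybridised to Affymetrix Mouse Gene arrays. Cells with the natural receptors IL-10R2/IL-22Rα1 received IL-22 (4 arrays) or no protein (4 arrays). Cells with the synthetic receptors mCherryVHHIL-10R2/GFPVHHIL-22Rα1, in which each receptor chain carries a single-domain antibody (VHH) to a fluorescent protein, received GFP-mCherry (6 arrays), mCherry-Fc (6 arrays) or no protein (6 arrays). All groups are Ba/F3/gp130 cells, a mouse pro-B cell line that also carries gp130 and was kept growing with Hyper-IL-6, a fusion of IL-6 and its soluble receptor. All were washed 4 times and starved of serum for 4 h, and proteins were added at 100 ng/ml for 2 h. The labels do not say whether a receptor line is 1 clone, nor whether arrays of a group come from separate cultures, so p-values measure only the spread between these arrays. By GEO's design text the arrays were to show the constructs' effect on the whole transcriptome and any background activity.

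Interferons act through paired receptors and kinases of the JAK family, which for types I and III are JAK1 and TYK2. Type I and III interferons lead to transcription through the interferon-stimulated response element (ISRE), to which STAT2 and IRF9 are recruited, while STAT dimers bind gamma-activated sites (GAS). IL-22, a cytokine of the IL-10 family, signals mainly through STAT3, and its receptor chain IL-10R2 is also used by the type III interferons. The proteins encoded by the genes described here sense viral RNA, degrade it or block its translation, hold back virus entry or release, or tag other proteins for these ends.

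Several promoter stretches are shown first, to set the letters of an interferon response element beside the response of its gene. They were picked by hand among windows that hold a match, so they cannot show whether letters and response go together. RefSeq promoter windows (GRCm38.p6, from 250 bases before the gene start to 50 after it) matched 34 of the 45 listed genes. The letters GAAANNGAAA, searched on both strands with overlapping matches kept, occurred in at least 1 window of 16 of the 31 measured genes that have any (51.6%). Counted by window this was 17 of 37 (45.9%), against 3.44% of all 32851 windows of the same length. They occurred in 10 of 17 genes that rose with IL-22 (58.8%), 1 of 3 that fell (33.3%) and 5 of 11 that did not pass the test (45.5%). The GAS letters TTCNNNGAA, which read the same on both strands, occurred in 7 of the 31 genes, namely Adar, Bst2, Eif2ak2, Ifi35, Ifit2, Ifitm3 and Oas1a. This was 7 of 37 windows (18.9%), against 8.3% of all windows. A match is a description of the letters and not a binding site. Each stretch is given 5′ to 3′ on the gene's own strand, with every match to GAAANNGAAA or its reverse complement in capitals. The first 4 genes rose with IL-22, and Ifit3 and Oas1a did not pass the test.
Trim30d: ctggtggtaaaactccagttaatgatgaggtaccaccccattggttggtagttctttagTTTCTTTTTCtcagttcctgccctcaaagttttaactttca
Ifit1: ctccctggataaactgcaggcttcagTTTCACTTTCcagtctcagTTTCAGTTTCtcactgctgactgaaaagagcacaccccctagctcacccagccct
Cxcl10: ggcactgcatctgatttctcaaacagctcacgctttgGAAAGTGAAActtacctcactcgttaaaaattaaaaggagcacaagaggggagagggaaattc
Gbp3: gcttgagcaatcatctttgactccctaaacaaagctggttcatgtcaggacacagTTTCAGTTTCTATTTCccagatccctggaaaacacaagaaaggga
Ifit3: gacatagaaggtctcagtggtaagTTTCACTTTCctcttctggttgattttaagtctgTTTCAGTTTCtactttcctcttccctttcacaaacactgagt
Oas1a: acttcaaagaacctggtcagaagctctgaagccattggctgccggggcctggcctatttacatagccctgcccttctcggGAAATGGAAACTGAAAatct
These stretches lie at chr7:104507850-104507949 on the minus strand (Trim30d), chr19:34640759-34640858 on the plus strand (Ifit1), chr5:92349040-92349139 on the minus strand (Cxcl10), chr3:142559944-142560043 on the plus strand (Gbp3), chr19:34583349-34583448 on the plus strand (Ifit3) and chr5:120907526-120907625 on the minus strand (Oas1a). Ifit1 and Ifit3, which lie in the same gene cluster with 3 protein-coding genes between them, each hold 2 separate matches, and their responses to IL-22 are described with the IFIT genes.

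The deposited log2 intensities ran from 1.79 to 14.31, array medians from 6.06 to 6.28, and arrays of a group correlated at 0.981 to 0.994 across probe sets. Of the 8 natural receptor arrays, 3 stood apart from the rest, namely IL-22 replicate 5 and untreated replicates 4 and 5. In these 3 arrays the mean of 8 macrophage and monocyte markers was 7.28 to 7.55, against 6.14 to 6.20 in the other 5 natural receptor arrays and 5.42 to 5.82 in the 18 synthetic receptor arrays, with 5 of the 8 markers outside the range of the other natural arrays. Itgam, an integrin chain of myeloid cells, had log2 intensities of 11.73 to 12.05 in the 3 arrays, 8.73 to 8.98 in the other natural arrays and 4.72 to 6.02 in the synthetic ones. Of 9 measured pro-B and pre-B markers, 3 (Cd79a, Cd79b and Vpreb2) lay at or above the median of all genes in every group, while the early B cell regulators Pax5 and Ebf1 lay below it in each. The part of the myeloid markers in the results was not tested. For the listed antiviral genes, comparisons that rest on natural receptor arrays are therefore given with and without the 3 arrays that stood apart. The smaller set is an alternative chosen after the data were seen. The further lists, of other interferon-stimulated genes and of signalling genes, were read from all arrays only. In bulk RNA, fewer cells of a type and less RNA per cell cannot be told apart.

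IL-22 raised most of the interferon-stimulated genes in cells with natural receptors. Of the 42 measured, 24 rose and 3 fell in limma's moderated test (adjusted p under 0.05), whereas 5.39% of all genes rose, 6.03% fell and 11.4% changed in either direction. The median log2 change was 0.38, against -0.02 over all genes. In all, 6 genes changed at least 2-fold, all upward, a count for which no share of all genes is given. The 4 IL-22 arrays lay above all 4 untreated arrays for 16 genes (5.03% of all genes did so) and below them for 0 (6.34% of all genes). The plot of shares by comparison sets these counts beside those of the other comparisons.

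**Figure D1:**
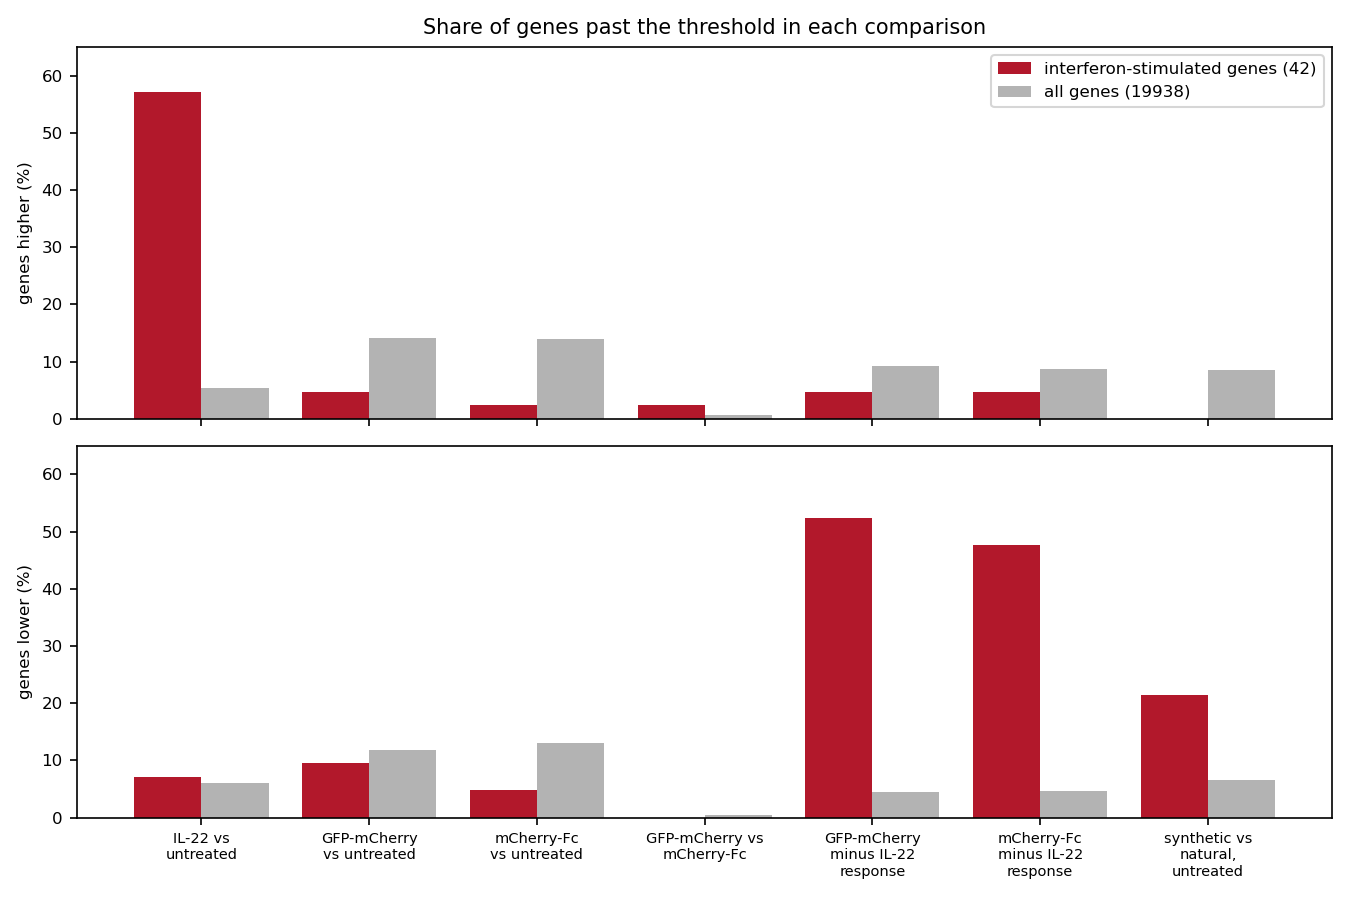
Share of genes past the threshold (adjusted p under 0.05) in each of 7 comparisons, upward in the upper panel and downward in the lower one, for the 42 measured interferon-stimulated genes (red) and all 19938 genes (grey). IL-22 raised 24 of the 42 genes, GFP-mCherry 2 and mCherry-Fc 1.

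The largest rise was that of Trim30d, a TRIM family gene. Trim30d had log2 intensities of 7.75, 7.60, 7.76 and 6.87 in IL-22 replicates 1, 2, 3 and 5, against 4.76, 5.29, 5.24 and 4.97 in untreated replicates 2, 3, 4 and 5. The groups did not overlap, and replicate 5 was the lowest of the IL-22 arrays. The change was 2.43 ± 0.16 on the log2 scale (SE), or 5.40-fold (limma adjusted p = 1.69e-12), and 2.68 without the 3 arrays. Its neighbour Trim30a, a ubiquitin ligase known in mouse as a brake on Toll-like receptor signalling, had 11.27, 11.36, 11.41 and 10.78 in IL-22 arrays against 9.90, 9.55, 9.80 and 9.81 in untreated arrays. Trim30a rose 2.71-fold (log2 change 1.44 ± 0.10, limma adjusted p = 6.21e-12). The Trim30 genes are close copies of each other, so how their probe sets divide the signal is uncertain. Trim25, the ubiquitin ligase that modifies RIG-I, rose by 0.70 and Trim21, a cytosolic antibody receptor, by 0.33 on the log2 scale. All 4 measured TRIM genes thus passed the test upward, with a median change of 1.07. Trim21 was -0.07 when only replicates numbered 4 and 5 were compared, and it passed the test in only 1 of 8 fits that left out 1 array, the fit without IL-22 replicate 5 (highest adjusted p = 0.180).

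The OAS genes encode enzymes that make oligoadenylates, the activators of RNase L. Oas2 had log2 intensities of 9.93, 9.80, 10.00 and 8.79 in IL-22 arrays, against 7.49, 7.28, 7.66 and 7.68 in untreated arrays. All IL-22 arrays were above all untreated arrays, with replicate 5 again the lowest. Oas2 rose by 2.10 ± 0.15 (SE, limma adjusted p = 2.75e-11), and by 2.52 without the 3 arrays. Oasl2 rose by 0.98, Oas3, which lies next to Oas2, by 0.60, and Oas1b by 0.43. Oas1c, by contrast, fell by 0.38 (adjusted p = 0.0494), and Oas1a (0.09) and Oasl1 (0.18) did not pass the test. Of the 7 measured OAS genes 4 rose and 1 fell. Oas1a and the unmeasured Oas1g are near-identical copies, so the Oas1a value is uncertain. Oas1b and Oas1c did not pass the test without the 3 arrays (0.37, adjusted p = 0.0998, and -0.32, adjusted p = 0.186). The Oas1b call was also lost without untreated replicate 4 (adjusted p = 0.0556). The Oas1c call was lost without IL-22 replicate 1 or 3 or untreated replicate 2, 4 or 5 (highest adjusted p = 0.236). Without the 3 arrays Oasl2 rose by 1.36 and Oas3 by 0.98. When only replicates numbered 4 and 5 were compared, Oas2 was at 1.12, Oas1b at 0.57, Oasl2 at 0.09 and Oas3 at 0.04. The Oas3 call was also lost with only the groups compared.

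The ADP-ribosyltransferase genes moved with the exception of Parp12. Parp14 had log2 intensities of 10.26, 10.39, 10.38 and 9.45 in IL-22 arrays, against 8.37, 8.29, 8.55 and 8.71 in untreated arrays. The groups did not overlap, and the rise of 1.64 ± 0.16 (SE, limma adjusted p = 9.85e-09) corresponded to 3.11-fold. Parp9 and Dtx3l, whose proteins form a complex that promotes interferon responses, lie beside Parp14 in the genome and rose by 0.92 and 0.61. Parp10 rose by 0.89. Parp12 was at -0.07 and did not pass the test. Without the 3 arrays the rises were 2.01 for Parp14, 1.17 for Parp9, 1.05 for Parp10 and 0.77 for Dtx3l. With only replicates numbered 4 and 5 compared, the changes were 0.82 for Parp14, 0.44 for Parp9, 0.56 for Parp10 and 0.13 for Dtx3l.

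Rtp4 encodes a chaperone that moves receptors to the cell surface and, in mouse, dampens interferon responses. Rtp4 had log2 intensities of 6.96, 7.47, 7.27 and 5.00 in IL-22 arrays, against 5.01, 5.22, 5.32 and 5.34 in untreated arrays. IL-22 replicates 1, 2 and 3 were high and replicate 5 was below every untreated array. The rise of 1.45 ± 0.28 (SE, limma adjusted p = 0.000449) grew to 2.12 without the 3 arrays, while the difference between replicates numbered 4 and 5 alone was -0.33. Cxcl10, a chemokine that draws activated T cells, showed the same layout, with 6.76, 6.96, 6.90 and 5.59 in IL-22 arrays against 5.62, 5.60, 5.55 and 5.27 in untreated arrays. Cxcl10 replicate 5 lay within the untreated range. The Cxcl10 rise was 1.04 ± 0.18 (SE, limma adjusted p = 8.42e-05), and 1.27 without the 3 arrays. Between replicates numbered 4 and 5 alone the Cxcl10 difference was 0.18.

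Genes outside these families rose as well. Eif2ak2, the gene for the RNA-activated kinase PKR that stops translation, rose by 0.98 on the log2 scale. Zbp1, a sensor of Z-form nucleic acid, rose by 0.83, Herc6, the main ligase for ISG15 in mouse, by 0.82, and Ddx58 by 0.68. Of the 3 RIG-I-like receptor genes, Ddx58 alone passed the test, with Ifih1 (MDA5) at -0.07 and Dhx58 (LGP2) at 0.20. Gbp3, a guanylate-binding protein that attacks pathogen vacuoles, rose by 0.53, Xaf1, a pro-apoptotic XIAP-binding gene, by 0.51, and Ifi35 by 0.34. Adar, which edits double-stranded RNA, rose by 0.25 and Ifitm3, which blocks virus fusion, by 0.18. Gbp3 and Adar were at -0.01 and -0.02 when only replicates numbered 4 and 5 were compared, a set with 1 IL-22 array. In that set Xaf1 was at 0.05, Ifi35 at 0.09, Ifitm3 at 0.04 and Ddx58 at 0.23. Eif2ak2 was at 0.47, Zbp1 at 0.40 and Herc6 at 0.64.

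Several of the smaller rises were lost when 1 of the 8 natural receptor arrays was left out. Ifitm3 passed the test only without IL-22 replicate 5 (highest adjusted p of the 7 other fits 0.215). Adar passed only without IL-22 replicate 5 or untreated replicate 3 (highest adjusted p of the 6 other fits 0.120). Ifi35 was lost without IL-22 replicate 2 or 3 (lowest change 0.28, highest adjusted p = 0.0683), and Gbp3 without IL-22 replicate 2 or untreated replicate 4 (lowest change 0.38, highest adjusted p = 0.102). The rises without the 3 arrays with high macrophage markers were 1.11 for Eif2ak2, 1.09 for Zbp1, 0.88 for Herc6, 1.0 for Ddx58, 0.67 for Gbp3, 0.76 for Xaf1, 0.43 for Ifi35, 0.30 for Adar and 0.23 for Ifitm3. In the TRIM family they were 1.62 for Trim30a, 0.81 for Trim25 and 0.44 for Trim21.

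Members of a family did not move together in every case. Among the IFIT genes, whose proteins bind foreign RNA ends and halt translation, Ifit1 rose by 0.77, Ifit2 fell by 0.45 (adjusted p = 0.0340) and Ifit3 was at 0.09. The Ifit2 fall did not pass the test without IL-22 replicate 1 or 5 or untreated replicate 2 or 3 (-0.43 to -0.32, highest adjusted p = 0.133), nor after quantile normalization or median centring, nor with only the groups compared or only high replicate numbers. Pml, the organiser of nuclear bodies, fell by 0.36 (adjusted p = 0.0030), a call that was lost with only the groups compared. Without the 3 arrays Ifit1 was at 1.01, Ifit2 at -0.52 and Pml at -0.34, all past the threshold. The 15 genes that did not pass the test ranged from -0.18 to 0.46, and 1 of them was under 0.05 without adjustment. They include Rsad2, which makes an antiviral nucleotide (-0.06, 95% interval -0.22 to 0.09), and its genomic neighbour Cmpk2 (0.01, -0.18 to 0.20). They also include Bst2, the tether that holds virions at the cell surface (-0.01, -0.25 to 0.22), and the dynamin-like GTPases Mx1 (-0.18, -0.35 to 0.00) and Mx2 (0.25, -0.02 to 0.51). The upper bounds for Rsad2, Cmpk2, Bst2 and Mx1 lie below the rise measured for Ifit1. Cmpk2 and Mx1 were dim, so for them the bounds speak only for the array signal. In all, 7 genes, Mx1, Mx2, Ifit1, Ifit3, Ifih1, Cmpk2 and Parp12, had a mean below 5.16, the lower quartile of the means of all genes.

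**Figure D2:**
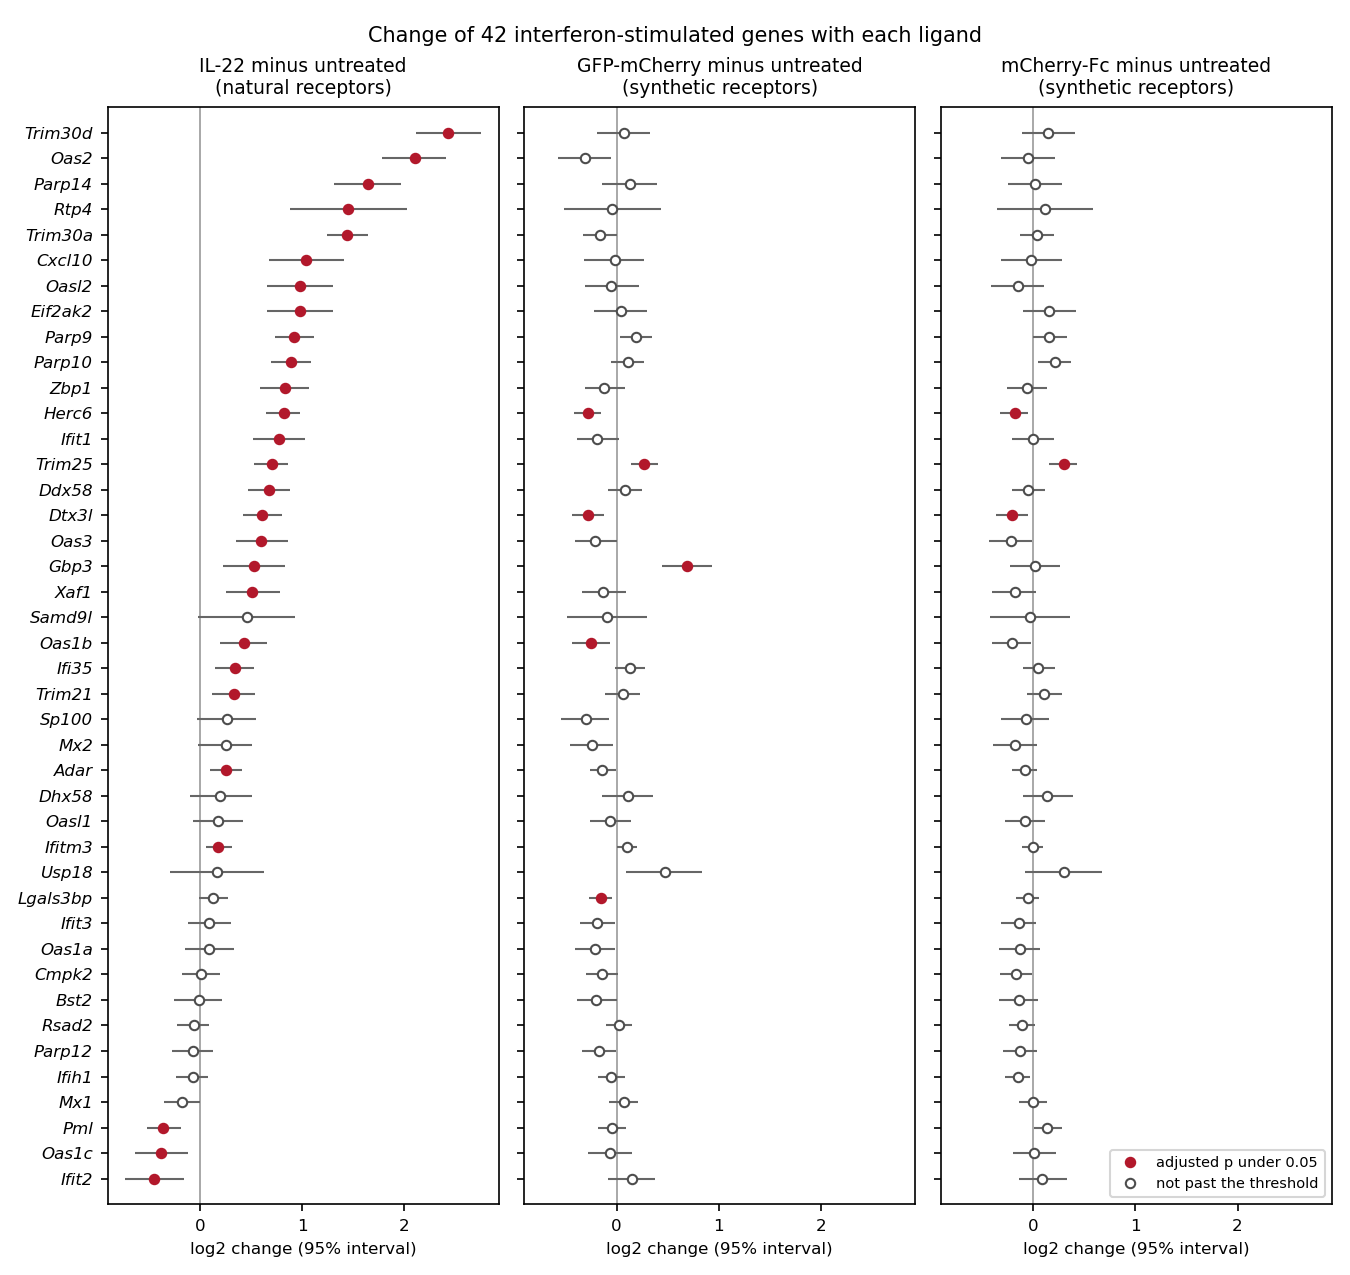
Log2 change of the 42 measured genes with IL-22, GFP-mCherry and mCherry-Fc, each minus the untreated cells of the same receptor line, with 95% intervals of the fit; genes are in the order of their IL-22 change. Filled points passed the test (adjusted p under 0.05), and all 6 changes of at least 2-fold stand in the IL-22 panel.

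Without the 3 arrays, which left 3 IL-22 and 2 untreated arrays, 27 genes rose and 2 fell (12.3% of all genes changed, 5.09% upward and 7.19% downward), 25 of them called in both fits. The median change was 0.55, and 13 genes changed at least 2-fold, again without a share of all genes. Usp18 (0.67, adjusted p = 0.000248), Sp100 (0.54), Samd9l (0.55) and Dhx58 (0.42) passed the test only in this smaller set. Usp18, the protease that removes ISG15 and shuts down the type I receptor, had log2 intensities of 7.10, 7.36, 6.91 and 7.79 in IL-22 arrays, against 6.47, 6.43, 7.54 and 8.05 in untreated arrays. Its highest values stood in the arrays with high macrophage markers in both groups, and the pooled change was 0.17 (adjusted p = 0.787). In the arrays numbered 1 to 3, IL-22 arrays were above untreated arrays for Usp18.

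**Figure D3:**
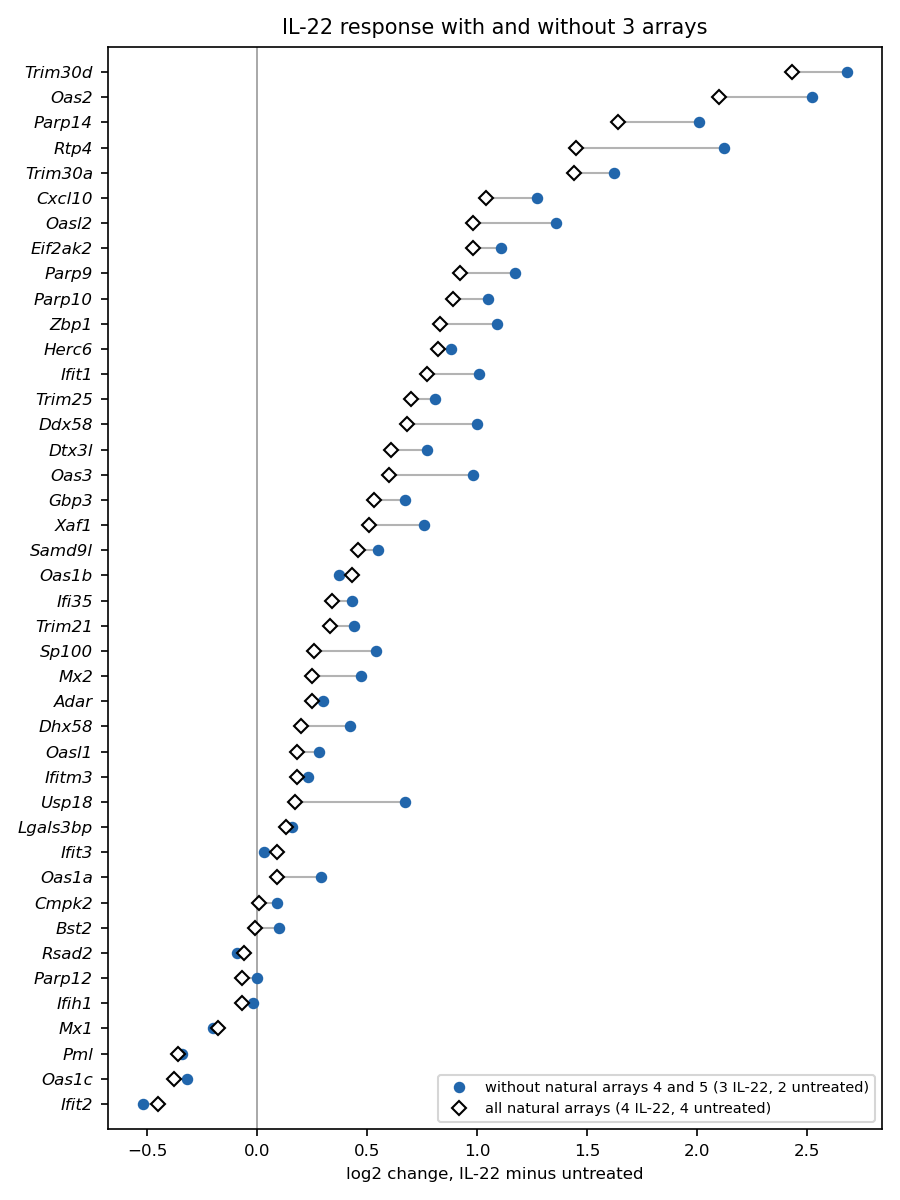
Log2 change of each of the 42 genes with IL-22, from all natural receptor arrays (diamonds, 4 IL-22 and 4 untreated) and without IL-22 replicate 5 and untreated replicates 4 and 5 (filled circles, 3 and 2 arrays). Most circles lie to the right of their diamonds, with Rtp4 at 2.12 against 1.45 and Usp18 at 0.67 against 0.17.

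A pair of further lists of the pathway were read beside these genes, from all arrays only. Of 47 measured other interferon-stimulated genes, 17 rose and 1 fell with IL-22 (median 0.24), where 5.39% of all genes rose and 6.03% fell. The 3 with the smallest p were Pnp, a purine nucleoside phosphorylase (1.69), Stat2 (1.22) and Slfn4 (0.72). Of 36 measured receptors, kinases, transcription factors, sensors and interferons, 13 rose and 3 fell (median 0.05), beside the same shares of all genes. Socs3, a feedback inhibitor of STAT3 signalling, rose by 4.30, Stat2 by 1.22 and Stat3 by 0.98. Stat2 belongs to both lists. The interferon genes Ifnb1, Ifng, Ifna4 and Ifnk did not pass the test with IL-22, at -0.02, 0.04, -0.02 and 0.01. Their mean log2 intensities in IL-22 arrays were 4.86, 5.85, 5.08 and 3.89, below the median of all genes (6.53). Such a low signal limits what these flat values can show. The type I receptor chains had group means of 9.67 to 9.87 (Ifnar1) and 10.60 to 10.76 (Ifnar2) over the 5 groups.

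In cells with synthetic receptors, GFP-mCherry changed 6 of the 42 genes. Gbp3 and Trim25 rose, and Herc6, Dtx3l, Oas1b and Lgals3bp fell, in a comparison in which 26% of all genes changed (14.2% upward, 11.8% downward). The median change was -0.06, against -0.04 over all genes, and none reached 2-fold. A further 11 genes were under 0.05 without adjustment. The count was 10 after quantile normalization, with the replicate block or with only high replicate numbers, and 11 with only the groups compared. It was 12 with a batch term for low and high replicate numbers, 16 with only low numbers and 1 at a change of at least 1.5-fold. The share of all genes called in each of these fits is not set beside the counts, so they say nothing particular to the 42 genes. The GFP-mCherry arrays lay above all untreated arrays for 3 genes (10% of all genes) and below them for 3 (4.11% of all genes).

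Gbp3 had log2 intensities with a lowest, median and highest value of 5.79, 6.09 and 6.14 in GFP-mCherry arrays, against 5.05, 5.37 and 5.61 in untreated synthetic arrays. The groups did not overlap, and the rise was 0.69 ± 0.12 (SE, n = 6 each, limma adjusted p = 9.32e-05), or 1.61-fold. For Trim25 these values were 9.14, 9.16 and 9.25 in GFP-mCherry arrays against 8.83, 8.88 and 8.97 in untreated arrays, again without overlap. Trim25 rose by 0.27 ± 0.07 (SE, limma adjusted p = 0.00319).

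The 4 falls were small. Herc6 had 8.64, 8.73 and 8.82 (lowest, median and highest) in GFP-mCherry arrays, against 8.87, 8.99 and 9.21 in untreated arrays, a change of -0.28 (limma adjusted p = 0.00218). Dtx3l had 9.86, 10.00 and 10.04 in GFP-mCherry arrays against 10.14, 10.26 and 10.34 in untreated arrays, also -0.28 (limma adjusted p = 0.00767). Neither gene's groups overlapped. Oas1b had 4.98, 5.36 and 5.50 in GFP-mCherry arrays against 5.44, 5.58 and 5.67 in untreated arrays (-0.25, limma adjusted p = 0.0439). Lgals3bp, a secreted glycoprotein that binds galectins, had 11.41, 11.49 and 11.63 in GFP-mCherry arrays against 11.52, 11.68 and 11.76 in untreated arrays (-0.15, limma adjusted p = 0.0414). The groups of Oas1b and Lgals3bp overlapped, and their calls were lost in 7 and 8 of 12 fits that left out 1 array (highest adjusted p = 0.126 and 0.0954). After quantile normalization the falls of Herc6, Dtx3l and Lgals3bp still passed the test, and that of Oas1b did not. None of the 4 falls passed after centring each array on its median. That centring put the median of all genes at 0.06, against -0.04 as deposited, and gave 6 rises and 0 falls among the 42 genes. Herc6 then stood at -0.18 (adjusted p = 0.0830) and Dtx3l at -0.18 (adjusted p = 0.109). Over all genes the share of upward calls was 88.5% after this centring, against 54.8% as deposited.

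With mCherry-Fc 3 of the 42 genes changed, against 26.9% of all genes (14% upward, 13% downward), with a median of -0.04 that equalled the median of all genes. Trim25 had a lowest, median and highest log2 intensity of 9.10, 9.20 and 9.25 in mCherry-Fc arrays, against 8.83, 8.88 and 8.97 in untreated arrays. The groups did not overlap, and Trim25 rose by 0.30 ± 0.07 (SE, n = 6 each, limma adjusted p = 0.00190). Dtx3l was lower by less, with 9.97, 10.06 and 10.13 in mCherry-Fc arrays against 10.14, 10.26 and 10.34 in untreated arrays (-0.21, limma adjusted p = 0.0468). Herc6 had 8.67, 8.88 and 8.88 in mCherry-Fc arrays against 8.87, 8.99 and 9.21 in untreated arrays (-0.18, limma adjusted p = 0.0420). With the replicate number as a block, Dtx3l (-0.23, adjusted p = 0.129) and Herc6 (-0.18, adjusted p = 0.156) did not pass the test and Trim25 did (0.30, adjusted p = 0.0285). Median centring gave 4 rises and 0 falls, with the median of all genes at 0.07 and upward calls at 88.8% of all calls against 51.9% as deposited. Leaving out untreated replicate 12 or 14, or mCherry-Fc replicate 10, 13, 14 or 15, left 1 gene past the threshold. A further 7 genes were under 0.05 without adjustment. The mCherry-Fc arrays lay above all untreated arrays for 1 gene (7.85% of all genes) and below them for 1 (3.46% of all genes).

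Gbp3 was the only one of the 42 genes called between the 2 ligands of the synthetic receptors, in a comparison in which 1.09% of all genes changed (0.722% upward, 0.371% downward). Its log2 intensities were 5.79, 6.09 and 6.14 (lowest, median and highest) in GFP-mCherry arrays against 5.17, 5.42 and 5.45 in mCherry-Fc arrays, without overlap. The GFP-mCherry arrays lay above all mCherry-Fc arrays for this gene alone (1.51% of all genes) and below them for 2 genes (1.45% of all genes). The difference was 0.67 ± 0.12 (SE, n = 6 each, limma adjusted p = 0.00130), or 1.59-fold. With the replicate block the Gbp3 difference was 0.50 and did not pass the test (adjusted p = 0.212), which left 0 of the 42 genes. The count was 5 with only the groups compared and 2 with the batch term or with only low numbers, again without the share of all genes in those fits. Among the receptors, kinases and factors of the pathway, 3 of 36 were higher with GFP-mCherry and 0 lower, beside the same shares of all genes. They were the transcription factor Irf1 (0.83), the kinase Ikbke (0.68) and the interferon gamma receptor chain Ifngr2 (0.65). For the other 41 genes the differences lay between -0.26 and 0.17, and 4 of them were under 0.05 without adjustment. Oas2, for example, differed by -0.26 with a 95% interval of -0.52 to 0.00.

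**Figure D4:**
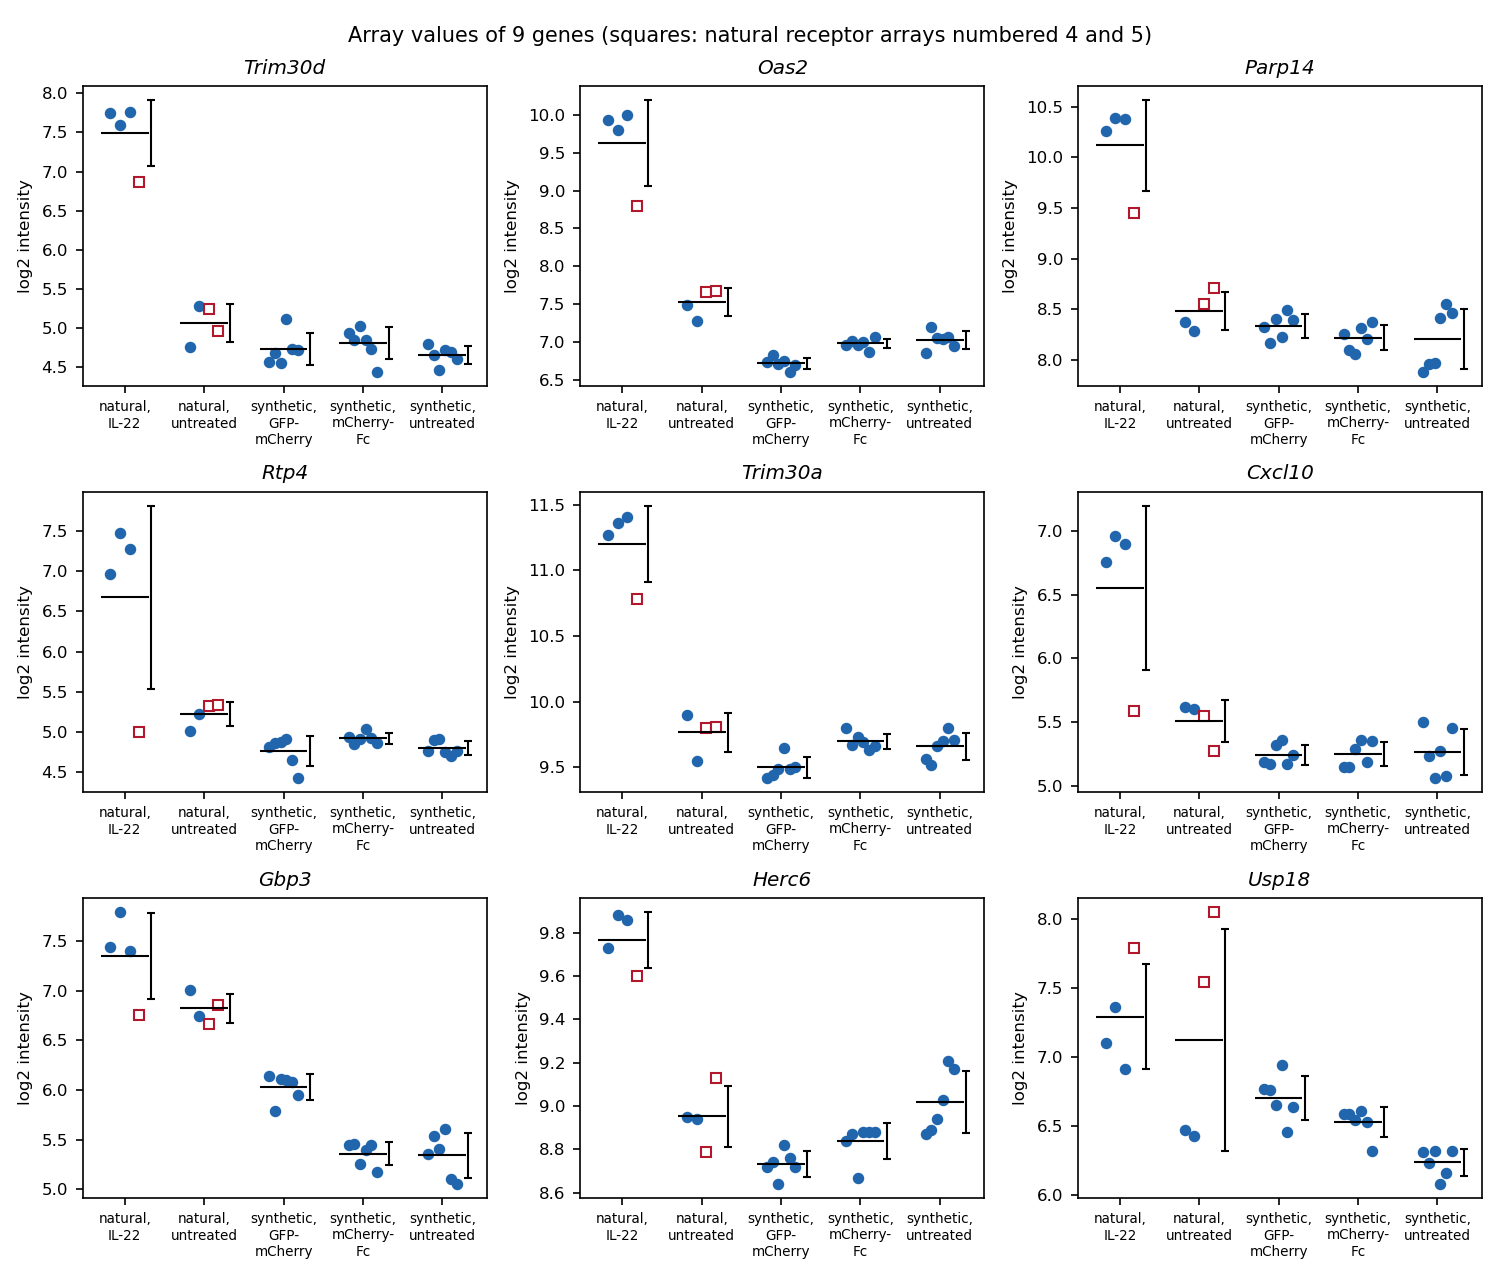
Log2 intensity of 9 genes in every array of the 5 groups; bars across the points are group means and the error bars beside them SDs (n = 4 natural and n = 6 synthetic arrays per group). Squares mark IL-22 replicate 5 and untreated natural replicates 4 and 5, and the IL-22 square is the lowest IL-22 point in every panel except Usp18.

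The responses of the synthetic and the natural receptor cells were compared directly, as the synthetic response minus the IL-22 response. Receptor, added protein and cell line differ together in this comparison, so their parts cannot be told apart. For GFP-mCherry the response was lower than that to IL-22 for 22 of the 42 genes and higher for 2, whereas 4.4% of all genes were lower, 9.23% higher and 13.6% different either way. The median difference was -0.46, against -0.02 over all genes. For mCherry-Fc 20 genes were lower and 2 higher, against 4.6% and 8.76% of all genes (13.4% either way), with a median of -0.41. The differences for the 2 ligands share the IL-22 arrays and both untreated groups, so they are given side by side and are not independent of each other or of the IL-22 result.

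The differences were largest for Oas2, at -2.41 (SE 0.20) with GFP-mCherry and -2.15 (SE 0.20) with mCherry-Fc, and for Trim30d, at -2.36 and -2.29. Trim30d had lowest, median and highest values of 4.56, 4.71 and 5.12 in GFP-mCherry arrays and 4.44, 4.85 and 5.03 in mCherry-Fc arrays, against 4.47, 4.68 and 4.80 in untreated synthetic arrays. These 3 groups overlapped, and the 95% intervals of the Trim30d change ran from -0.19 to 0.33 with GFP-mCherry and from -0.11 to 0.41 with mCherry-Fc. Trim30a differed by -1.60 and -1.40, Parp14 by -1.51 and -1.62, Rtp4 by -1.50 and -1.33, Herc6 by -1.10 and -1.0, and Cxcl10 by -1.07 and -1.06, GFP-mCherry before mCherry-Fc in each case. Ifit2 and Pml, which fell with IL-22, had positive differences of 0.60 and 0.54 and of 0.31 and 0.50 in the same order. The GFP-mCherry call for Pml was lost in 13 of 20 fits that left out 1 array (highest adjusted p = 0.125). The calls for Ifit2 were lost in 4 such fits for GFP-mCherry and in 11 for mCherry-Fc (highest adjusted p = 0.0657 and 0.109).

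A further 6 genes with large differences are given by array or by the range of a group. Oasl2, a relative of the OAS enzymes, ran from 5.83 to 6.16 (median 6.05) in GFP-mCherry arrays, against 5.93 to 6.25 (6.04) in untreated synthetic arrays. Its values in natural receptor cells were 7.70, 7.52, 7.58 and 6.57 in IL-22 arrays against 6.42, 6.06, 6.36 and 6.60 in untreated arrays, so the natural groups overlapped through the replicates numbered 5 alone. The Oasl2 difference in response was -1.03 with GFP-mCherry and -1.13 with mCherry-Fc. Ifit1 ran from 4.32 to 4.83 in GFP-mCherry arrays against 4.55 to 4.91 in untreated synthetic arrays. In natural receptor cells Ifit1 had 6.0, 5.73, 5.68 and 5.32 in IL-22 arrays against 4.83, 4.76, 5.10 and 4.96 in untreated arrays, without overlap. The Ifit1 differences were -0.96 and -0.78.

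Zbp1 ran from 5.78 to 6.07 in GFP-mCherry arrays against 5.81 to 6.33 in untreated synthetic arrays. In natural receptor cells Zbp1 had 6.99, 7.02, 7.28 and 6.76 in IL-22 arrays against 6.09, 5.93, 6.31 and 6.40 in untreated arrays, and the differences in response were -0.95 and -0.89. Only the natural groups were separated. Eif2ak2 ran from 8.66 to 8.88 in GFP-mCherry arrays against 8.33 to 9.13 in untreated synthetic arrays. Its natural receptor values were 9.59, 9.77, 9.88 and 8.99 in IL-22 arrays against 8.75, 8.52, 8.49 and 8.55 in untreated arrays. The kinase gene thus overlapped in the synthetic groups and not in the natural ones, with differences in response of -0.94 and -0.82.

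Oas3 ran from 5.97 to 6.33 in GFP-mCherry arrays against 6.25 to 6.52 in untreated synthetic arrays. In natural receptor cells Oas3 had 7.45, 7.41, 7.47 and 7.07 in IL-22 arrays against 6.33, 6.60, 7.12 and 6.94 in untreated arrays, which overlapped through replicates 4 and 5. The Oas3 differences were -0.81 and -0.82. Parp10 ran from 7.95 to 8.35 in GFP-mCherry arrays against 7.82 to 8.25 in untreated synthetic arrays. Its natural receptor values of 9.29, 9.50, 9.25 and 9.00 with IL-22, against 8.34, 8.25, 8.41 and 8.49 untreated, did not overlap, and the differences in response were -0.78 and -0.68.

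Without the 3 arrays, 26 genes had a lower response to GFP-mCherry than to IL-22 and 2 a higher one (16.4% of all genes differed, 5% downward and 11.4% upward), including all 24 genes called before. For mCherry-Fc the counts were 23 and 2 (16.6% of all genes, 5.17% downward and 11.4% upward), including all 22. In this smaller set the differences, again for GFP-mCherry and then mCherry-Fc, were -2.83 and -2.57 for Oas2, -2.61 and -2.53 for Trim30d, -1.78 and -1.58 for Trim30a and -1.89 and -2.0 for Parp14. They were -2.17 and -2.0 for Rtp4, -1.16 and -1.06 for Herc6, -1.29 and -1.28 for Cxcl10, -1.41 and -1.51 for Oasl2 and -1.20 and -1.02 for Ifit1. They were -1.20 and -1.15 for Zbp1, -1.07 and -0.96 for Eif2ak2, -1.19 and -1.20 for Oas3 and -0.94 and -0.84 for Parp10. Each of these 13 genes differed in the direction seen with all arrays. The smaller set is a part of those arrays, so this is no separate support. Among the genes called, Rtp4 alone turned sign under an alternative. Its differences were 0.25 and 0.53 with only high replicate numbers, a set with 1 IL-22 array.

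The further lists were read from all arrays, where 4.4% of all genes had a lower and 9.23% a higher response to GFP-mCherry, and 4.6% and 8.76% to mCherry-Fc. Of the other interferon-stimulated genes, 15 of 47 had a lower response to GFP-mCherry and 0 a higher one, and 13 and 1 to mCherry-Fc, with Stat2 at -1.49 and -1.31 and Pnp at -1.47 and -1.51. Of the signalling genes 12 of 36 were lower and 6 higher for GFP-mCherry, and 13 and 2 for mCherry-Fc. Socs3 rose by 1.02 with GFP-mCherry and 0.94 with mCherry-Fc.

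Before any protein was added, 9 of the 42 genes were lower in synthetic than in natural receptor cells and 0 were higher, whereas 6.62% of all genes were lower, 8.6% higher and 15.2% different either way. The median difference was -0.15, against 0.01 over all genes. The untreated synthetic arrays lay below all untreated natural arrays for 10 genes (4.86% of all genes) and above them for 0 (5.19% of all genes). Of the 47 other interferon-stimulated genes 2 were higher and 10 lower (median -0.05). Of the 36 signal genes 4 were higher and 6 lower (median 0.03), and the 3 with the smallest p were Il10rb, the gene of the receptor chain IL-10R2 (-1.89), Ikbke (-1.37) and Ifngr2 (-1.21). The receptors of both lines include a form of IL-10R2, and whether the Il10rb signal reads those constructs was not tested.

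Gbp3 had the largest difference, with lowest, median and highest log2 intensities of 5.05, 5.37 and 5.61 in synthetic arrays against 7.01, 6.75, 6.67 and 6.86 in natural arrays. The ranges were far apart, and the difference was -1.48 ± 0.13 (SE, limma adjusted p = 4.54e-09), or 2.79-fold lower in synthetic receptor cells. Without untreated natural replicates 4 and 5 and IL-22 replicate 5 it was -1.54. Usp18 had 6.08, 6.27 and 6.32 in synthetic arrays against 6.47, 6.43, 7.54 and 8.05 in natural arrays. The natural values of Usp18 were high in replicates 4 and 5 alone, and the difference of -0.89 (limma adjusted p = 0.00288) was -0.22 (adjusted p = 0.271) without them.

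Xaf1 ran from 5.66 to 5.99 (median 5.92) in synthetic arrays, against 6.19, 6.31, 6.39 and 6.68 in natural arrays. The groups were separate, with a difference of -0.51 (limma adjusted p = 0.00302), and -0.36 (adjusted p = 0.0868) without the 3 arrays. Pml ran from 10.05 to 10.32 (median 10.20) in synthetic arrays against 10.54, 10.49, 10.71 and 10.76 in natural arrays. Pml differed by -0.44 (limma adjusted p = 0.000124), and by -0.33 (adjusted p = 0.00338) without the 3 arrays. Adar ran from 8.93 to 9.08 in synthetic arrays against 9.23, 9.33, 9.16 and 9.18 in natural arrays, also without overlap (-0.22, and -0.28 without the 3 arrays).

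Oas2 (-0.49), Parp10 (-0.37), Oas3 (-0.35) and Lgals3bp (-0.18) were the other 4 genes lower in untreated synthetic cells. The calls for Oas2, Oas3, Adar and Lgals3bp were lost in 2, 5, 3 and 7 of 10 fits that left out 1 array (highest adjusted p = 0.0646, 0.245, 0.112 and 0.144). Oas3 was at -0.06 (adjusted p = 0.831) and Parp10 at -0.29 (adjusted p = 0.0761) without the 3 arrays, while Oas2 (-0.35) and Lgals3bp (-0.22) passed the test. In that smaller set 8 genes were lower and 0 higher (9.4% of all genes differed, 5.04% downward and 4.36% upward), of which 5 were called in both. Trim21, Trim25 and Cxcl10 were called in the smaller set alone.

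**Figure D5:**
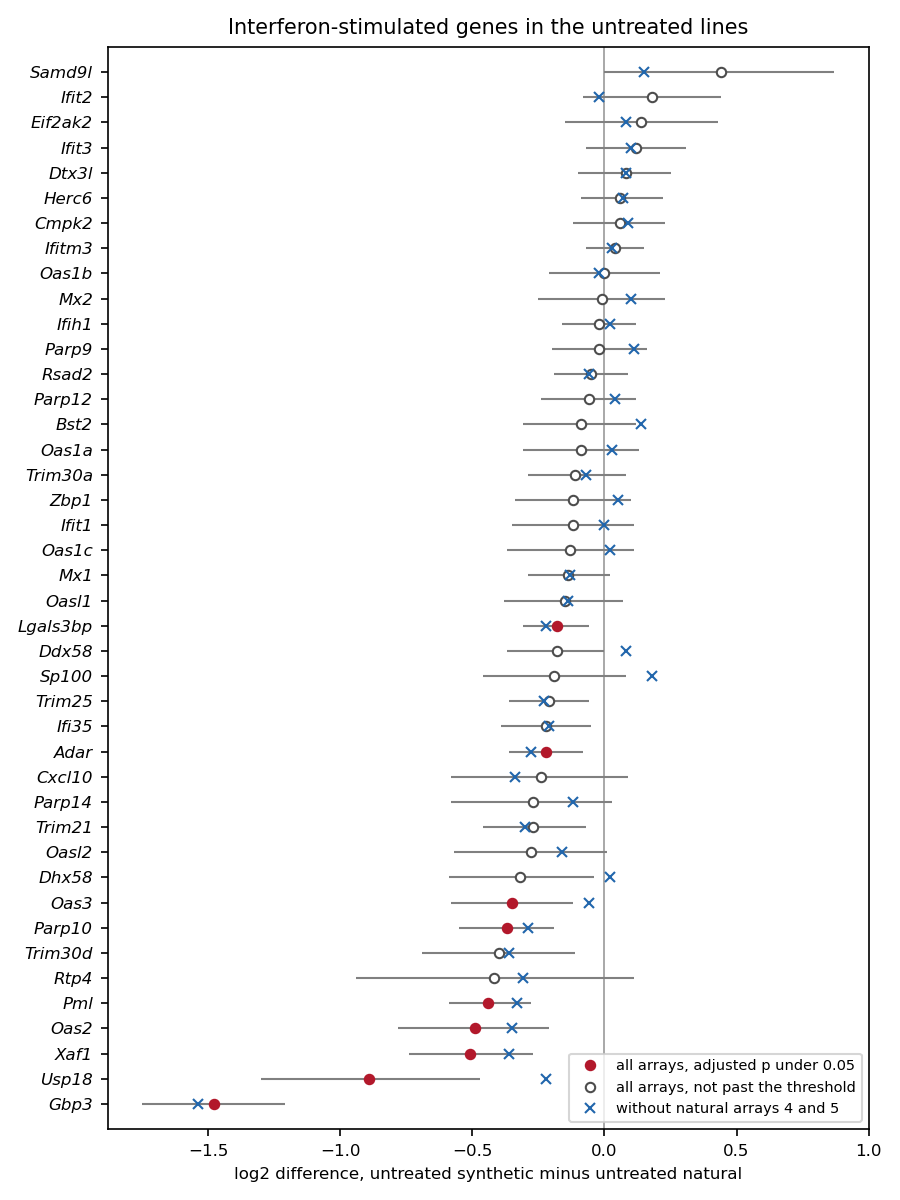
Log2 difference of each of the 42 genes between untreated cells, synthetic minus natural receptors, with 95% intervals (6 and 4 arrays); filled points passed the test, and crosses give the difference without the natural arrays numbered 4 and 5. Gbp3 stands at -1.48 and -1.54, and Usp18 at -0.89 and -0.22.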

How the data were processed

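Total RNA (150 ng, RNA integrity above 8) was amplified and hybridised, per the labels' protocols. What the authors deposited is 1 log2 intensity for each probe set and array, computed in Affymetrix Expression Console 4.0 per the labels; the background correction and normalization are not given in the sources used here. Of 35556 probe sets, 21789 carry 1 gene symbol, 1621 several and 12146 none, and 21698 of the single-symbol ones matched a current Entrez record. Single-symbol probe sets were kept, the brightest per gene, leaving 19938 genes with no filter on dim ones.

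All 26 arrays in 5 groups entered a linear model fitted to each gene with limma 3.58.1 in R 4.3.3 (lmFit, eBayes, two-sided), with Benjamini-Hochberg adjustment over all genes and a threshold of 0.05. The same code was tested on simulated data. Counts of genes changed at least 2-fold, and of genes under 0.05 without adjustment, are given without the share of all genes. The genes and gene lists were chosen with earlier results of these data known. All listed genes could be named; array values are given for up to 6 of the largest called changes per comparison, and from other lists up to 3 genes with the smallest p, plus the interferon genes, the type I receptor chains and markers. That choice of interferon and receptor genes came after their values were seen. "Rose" and "fell" are used of changes past the threshold.

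Replicate numbers in the titles are shared between groups. Deviations of same-numbered arrays correlated at 0.199, 0.35 and 0.242 for mCherry-Fc and untreated cells (replicates 9, 13 and 14), all above 0.1. The best correlation of the same mCherry-Fc arrays with an untreated array of another number was 0.287, 0.242 and 0.272. These values therefore do not establish that a shared number marks a pair. In the other comparisons at least 1 same-numbered pair was below 0.1. The tests as reported are unpaired. Alternatives covered scaling, filters, the variance prior, the samples fitted, replicate blocks and leaving out arrays. Promoter windows and gene order are RefSeq's, GRCm38.p6; 11 listed genes had no entry.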

Additional observations from a re-analysis of the deposited data

Results flagged for a closer look

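In 24 of 210 combinations of gene and group, 1 array lay far from the others by Dixon's 95% criterion, which chance alone meets in about 1 of 20 combinations. Of the 24, 10 were in IL-22 replicate 5 of the natural receptor cells. That array was low for Parp14 (9.45), Oas2 (8.79), Oas3 (7.07), Oasl2 (6.57), Xaf1 (6.59), Adar (9.15), Samd9l (6.74), Lgals3bp (11.76) and Cxcl10 (5.59), and high for Dhx58 (7.84), all as log2 intensity. Untreated natural replicate 4 was high for Parp12 (5.10). In synthetic receptor cells, GFP-mCherry replicate 12 was high for Trim30a (9.65), Trim30d (5.12) and Bst2 (8.55), and replicate 13 for Trim25 (9.25). mCherry-Fc replicate 10 was low for Trim21 (7.13) and Herc6 (8.67), replicate 13 for Ifit3 (4.21) and replicate 15 for Usp18 (6.32). Untreated synthetic replicate 7 was low for Trim21 (6.84) and Oas1c (6.30), and replicate 12 was low for Ifit1 (4.55) and Bst2 (8.28) and high for Cmpk2 (5.14).

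The response to a synthetic receptor ligand differed from the response to IL-22 in limma's test of the difference itself for the following genes, the GFP-mCherry difference being given before the mCherry-Fc difference. Among TRIM genes these were Trim30d (-2.36 and -2.29), Trim30a (-1.60 and -1.40) and Trim25 (-0.42 and -0.40). Among OAS genes they were Oas2 (-2.41 and -2.15), Oasl2 (-1.03 and -1.13), Oas3 (-0.81 and -0.82) and Oas1b (-0.68 and -0.64). Parp14 differed by -1.51 and -1.62, Dtx3l by -0.89 and -0.82, Parp10 by -0.78 and -0.68 and Parp9 by -0.73 and -0.76. Ifit1 differed by -0.96 and -0.78 and Ifit2 by 0.60 and 0.54. The remaining genes with a difference for both ligands were Rtp4 (-1.50 and -1.33), Herc6 (-1.10 and -1.0), Cxcl10 (-1.07 and -1.06), Zbp1 (-0.95 and -0.89), Eif2ak2 (-0.94 and -0.82), Xaf1 (-0.64 and -0.70), Ddx58 (-0.60 and -0.72), Adar (-0.39 and -0.34) and Pml (0.31 and 0.50). Sp100 (-0.56) and Lgals3bp (-0.28) passed the test for GFP-mCherry.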

How the results depend on the processing

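Counts of the 42 genes past the threshold were compared with those under each alternative, and the cause of a difference was not tested unless stated. The share of all genes past the threshold under each alternative is not set beside these counts. A higher or lower count is therefore no result particular to the 42 genes. With IL-22 (27 genes) the count was 16 at or above the median level of all genes, where fewer genes were tested, 17 with only the groups compared, 17 at a change of at least 1.5-fold and 6 with only arrays numbered 4 and 5, a set with 1 IL-22 array that is assumed to vary like the others. With GFP-mCherry (6) it was 10 after quantile normalization, 11 with only the groups compared, 1 at 1.5-fold, 10 with the replicate block, 12 with a batch term for high and low replicate numbers, 16 with low numbers and 10 with high ones. With mCherry-Fc (3) it was 5 with only the groups compared, 0 at 1.5-fold, 7 with the batch term and 6 with high numbers; limma called 3 and found 7 more under 0.05 unadjusted. Between the ligands (1) it was 0 at or above the median level, where Gbp3 is left out, 5 with only the groups compared, 0 with the replicate block (Gbp3 0.50, adjusted p = 0.212, with 4 others under 0.05 unadjusted in the fit as reported), 2 with the batch term and 2 with low numbers. The GFP-mCherry minus IL-22 count (24) was 14 at or above the median level and 8 with high numbers, and the mCherry-Fc minus IL-22 count (22) was 12 and 8. Between untreated cells (9) it was 2 at 1.5-fold and 20 with high numbers. Leaving out 1 array at a time gave 21 to 28 genes with IL-22, 4 to 7 with GFP-mCherry, 1 to 4 with mCherry-Fc, 1 to 1 between the ligands, 21 to 25 and 20 to 29 for the differences in response and 6 to 10 between untreated cells. With the replicate block the IL-22 count was 23, the mCherry-Fc count 2 and those of the differences in response 22 and 18. The arrays of a block are known to share only a number. Changes turned sign with only high numbers for Trim21 (-0.07), Gbp3 (-0.01), Adar (-0.02) and Rtp4 (-0.33) with IL-22 and for the Rtp4 differences in response (0.25 and 0.53), and with only low numbers for Oas3 between untreated cells (0.01). Median centring put upward calls at 83.2% and 82.8% of all genes' calls for the differences in response, against 67.7% and 65.6% as deposited. Of single-gene IL-22 values under the alternatives, 465 of 555 kept direction and side of the threshold, 86 lost the threshold and 4 turned. The number of arrays limits the precision.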
